A study of Mus musculus with 7 samples.

Results

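The miR-34 and miR-449 family and miR-204 were followed here in a mouse brain tumor and in normal gray matter. The 6 members were taken by name from the 566 mouse miRNA probes of a NanoString nCounter panel, a method that counts color-coded probes without amplification: mmu-miR-34a, mmu-miR-34b-3p, mmu-miR-34b-5p, mmu-miR-34c, mmu-miR-449a and mmu-miR-204, given below without the mouse prefix. All 6 were present, and all 6 were among the 283 miRNAs bright enough on average to be tested. The 4 tumors were astrocytomas of transgenic hGFAP-HaV12-Ras mice, in which the human promoter of the astrocyte gene GFAP drives an activated Ras oncogene, at postnatal days 65, 104, 125 and 134 for tumors 1 to 4. The 3 reference samples were layers II to IV of the neocortex of wild-type mice at postnatal day 60. All mice were of the outbred CD1 strain, and tumor 2 and neocortex 2 were the only females. The labels do not say whether the samples came from separate mice, so the p-values below measure the spread between these samples. In bulk tissue, fewer cells of a type and less miRNA per cell cannot be told apart.

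miRNAs pair with messenger RNAs through their seed, bases 2 to 8 from the 5′ end, and lower the output of those messages. miR-34a is transcribed from a gene of its own that the tumor suppressor p53 activates, and it restrains cell-cycle messages. miR-34b and miR-34c come from a shared transcript, and miR-449a from a cluster in the cell-cycle gene Cdc20b; both are abundant in cells with many motile cilia, such as those of the airway, the oviduct, and the ependyma and choroid plexus of the brain ventricles, where they are needed to build cilia. miR-204 lies in the ion channel gene Trpm3 and is a leading miRNA of choroid plexus and retinal pigment epithelium. Upper cortical layers do not border a ventricle.

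The mature sequences show what the family shares and why miR-204 stands apart from it. They are RefSeq entries on the GRCm38.p6 build, 5′ to 3′, with the seed in capitals. The first 3 have the seed of the family, the 4th is the other arm of the miR-34b hairpin, and the last 2 are miR-204 and its relative miR-211.
miR-34a, chr4:150068473-150068494, plus strand: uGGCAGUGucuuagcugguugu
miR-34b-5p, chr9:51103610-51103632, minus strand: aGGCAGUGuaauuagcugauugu
miR-449a, chr13:113037549-113037570, plus strand: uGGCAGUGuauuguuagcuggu
miR-34b-3p, chr9:51103574-51103595, minus strand: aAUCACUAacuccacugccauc
miR-204, chr19:22750610-22750631, plus strand: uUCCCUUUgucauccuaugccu
miR-211, chr7:64205831-64205852, plus strand: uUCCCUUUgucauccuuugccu
miR-34a and miR-449a share their first 9 bases and 15 of 22 positions when laid side by side without gaps. In the same way miR-34a and miR-34b-5p match at 11 of 22. miR-34b-5p has 23 bases against 22 in miR-34a, and a gap would change its count. The 2 counts therefore do not rank which is more like miR-34a. miR-204 and miR-211 differ only by A17U, counted from the 5′ end of miR-204. In the RefSeq gene table Mir34b and Mir34c both lie within the span of Btg4, Mir449a within that of Cdc20b, and Mir204 within that of Trpm3. Mature miR-34c is named only.

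The deposited log2 values could be taken back to whole counts in every sample, and total miRNA counts were 117606 to 208060 in tumor and 23578 to 60776 in neocortex. Each sample had its own cutoff, and probes below it carry the value 0. That cutoff lay at 3.09 to 3.78 on the log2 scale in tumor and at 4.65 to 5.21 in neocortex, so a miRNA at the same scaled level could be listed in tumor and be at 0 in neocortex. The highest negative-control probe had 15, 16, 21 and 21 counts in tumors 1 to 4 and 24, 18 and 12 counts in neocortex 1 to 3. Members at or under it cannot be told from background. At an adjusted p under 0.05 in limma, 17.7% of the 283 tested miRNAs were called in either direction, 8.13% as higher in tumor and 9.54% as lower. Among the 6 members, limma called miR-34a higher and no other member in either direction. At an unadjusted p under 0.05 the count was also 1 of 6, against 32.5% of all tested miRNAs. With the shared cutoff, which raises every lower value to the highest of the 7 sample cutoffs, 8.53% of 258 tested miRNAs were higher and 12.4% lower, and miR-34a was again the only member called.

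miR-34a rose in tumor on the authors' scaling, and the other 5 members were not called. miR-34b and miR-34c stand on the p53 list as well. The log2 level of miR-34a was 6.42, 6.28, 6.70 and 7.10 in tumors 1 to 4, against 5.48, 5.14 and 5.91 in neocortex 1 to 3. Every tumor lay above every neocortex sample. The groups did not overlap for 32.9% of tested miRNAs, and for 13.8% the tumors were the higher group; among the members this held for miR-34a alone. The mean was 6.63 ± 0.36 in tumor (SD, n = 4) and 5.51 ± 0.39 in neocortex (SD, n = 3), a 2.17-fold difference (log2 change 1.12, 95% interval 0.43 to 1.80, adjusted p = 0.044 in limma, Benjamini-Hochberg). The recovered counts behind these levels were 89, 107, 121 and 259 in tumor and 25, 12 and 13 in neocortex.

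In neocortex, miR-34a was therefore at about the level of the highest negative control, which had 24, 18 and 12 counts in the same 3 samples. In the tumors it stood 5.76 to 12.3 times above that control. The 2.17-fold difference is therefore one between listed values, with a neocortex level not clearly above background. With the highest negative control subtracted, all 3 neocortex samples lay under the shared cutoff, a log2 level of 5.21 to which all lower values were then raised. The tumor mean lay 1.19 above that cutoff on the log2 scale (adjusted p = 0.012 in limma, Benjamini-Hochberg). The 3 neocortex values were then equal by construction and had no spread, so this adjusted p does not strengthen the call. The call with the values as listed was lost when neocortex 1, neocortex 2 or any of tumors 1 to 4 was left out, with changes of 0.93 to 1.23 and limma Benjamini-Hochberg adjusted p of 0.063 to 0.12. It was kept without neocortex 3, at 1.32 (adjusted p = 0.042 in limma, Benjamini-Hochberg).

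**Figure D1:**
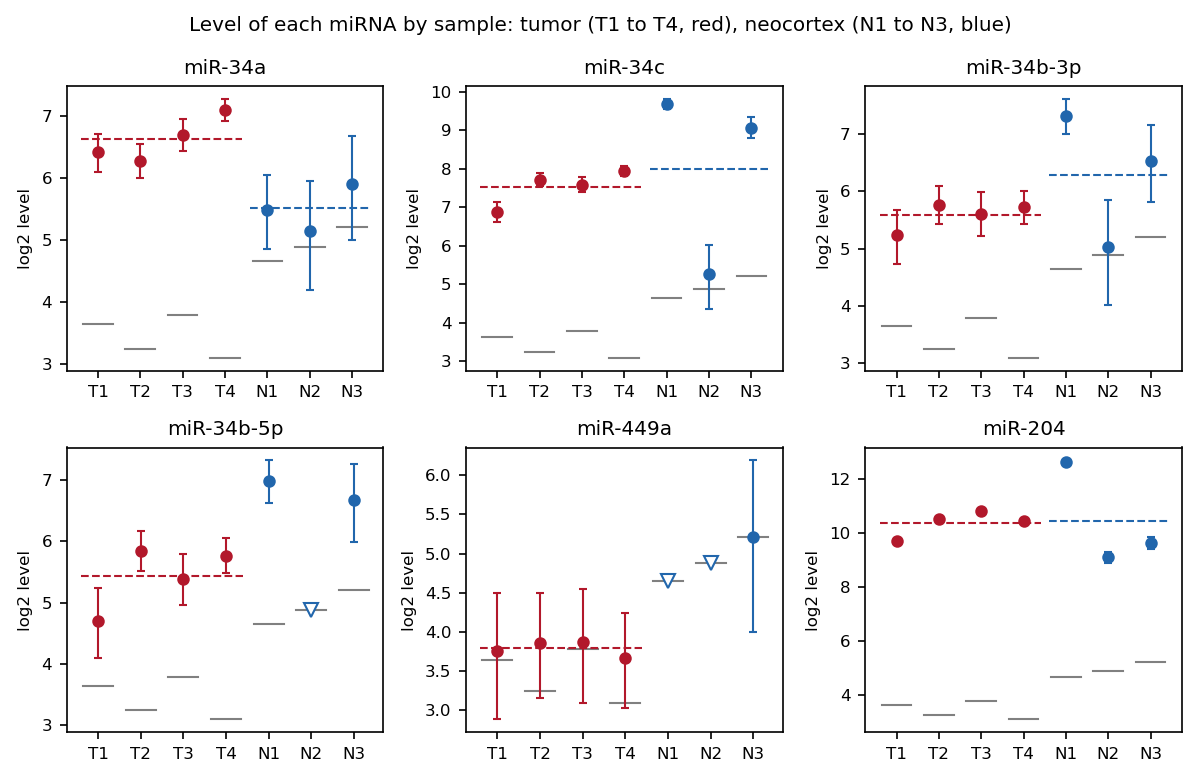
Deposited log2 level (y axis) of the 6 miRNAs in tumors 1 to 4 (T, red) and neocortex 1 to 3 (N, blue). Bars are 95% Poisson intervals of the recovered counts, gray ticks each sample's cutoff, open triangles samples listed at 0, and dashed lines group means where all samples are listed. miR-34a separates the groups, with neocortex values at about the negative control. miR-34c spans 5.26 to 9.68 in neocortex, around the tumor range of 6.87 to 7.95.

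The miR-34b and miR-34c probes varied far more among the neocortex samples than between the groups. That spread is not set against miR-34a, which lay at about the negative control in all 3 neocortex samples. miR-34c had log2 levels of 6.87, 7.71, 7.59 and 7.95 in tumors 1 to 4, against 9.68, 5.26 and 9.07 in neocortex 1 to 3. Neocortex 1 and 3 were above all tumors and neocortex 2 below all of them, so the neocortex values enclosed the tumor values. The recovered counts were 122, 288, 224 and 466 in tumor and 458, 13 and 116 in neocortex, and the 13 counts of neocortex 2 were under its highest negative control. The highest and lowest tumor differed 2.11-fold. The group means were 7.53 ± 0.46 in tumor (SD, n = 4) and 8.0 ± 2.40 in neocortex (SD, n = 3).

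Both arms of miR-34b followed the same order of samples in neocortex. miR-34b-3p was at 5.23, 5.77, 5.61 and 5.73 in tumors 1 to 4 and at 7.32, 5.02 and 6.53 in neocortex 1 to 3. miR-34b-5p, which carries the family seed, was at 4.70, 5.85, 5.39 and 5.77 in the tumors and at 6.99, 0 and 6.67 in neocortex 1 to 3. As with miR-34c, neocortex 1 and 3 lay above all tumors and neocortex 2 at the background, with 11 counts of miR-34b-3p and miR-34b-5p listed at 0. Tumor 1, the youngest, had the lowest tumor level of miR-34c, miR-34b-3p, miR-34b-5p and miR-204, an order given as a description of 4 samples.

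No difference between tumor and neocortex was called for these miRNAs. miR-34c differed by -0.47 (95% interval -3.03 to 2.09, adjusted p = 0.74 in limma, Benjamini-Hochberg), an interval that allows a change of several-fold in either direction. miR-34b-3p differed by -0.70 (95% interval -1.99 to 0.58, adjusted p = 0.37 by the same test). For miR-34b-5p the sign rested on the sample listed at 0: it was 0.87 with the values as listed and -0.73 with the shared cutoff, without a call in either. The outcome for all 3 turned on neocortex 2. Without it miR-34c fell by 1.84 on the log2 scale (adjusted p = 0.024) and miR-34b-3p fell by 1.34 (adjusted p = 0.035; both limma, Benjamini-Hochberg). As listed, miR-34b-5p was then at -1.40 and not called (adjusted p = 0.059 in limma, Benjamini-Hochberg). With the shared cutoff, a combination added after seeing the data, miR-34b-5p fell by 1.27 and was called (adjusted p = 0.018 in limma, Benjamini-Hochberg). Without neocortex 1 or neocortex 3 miR-34c lay at 0.36 or 0.06 and was not called. Neocortex 2 was also the only female of its group, so sex and this sample cannot be told apart there.

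**Figure D2:**
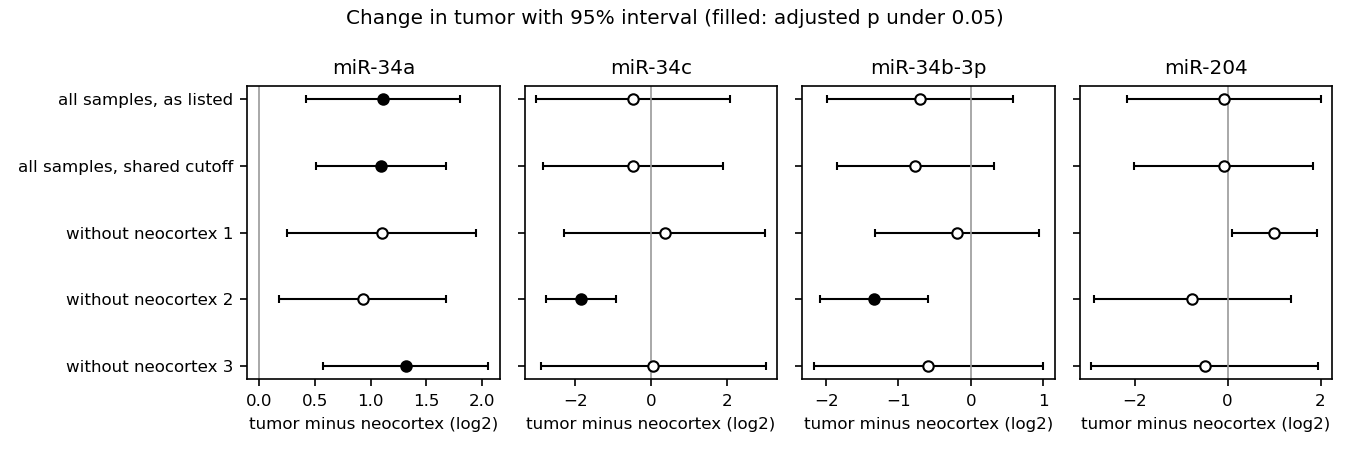
Log2 change, tumor minus neocortex, with its 95% limma interval (x axis) for miR-34a, miR-34c, miR-34b-3p and miR-204 with all samples as listed, with the shared cutoff, and without each neocortex sample. Filled points passed an adjusted p under 0.05. miR-34a lies between 0.93 and 1.32, with neocortex values at about the negative control in each fit. miR-34c lies between -1.84 and 0.36 and miR-204 between -0.77 and 1.01.

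miR-449a, which shares the seed and the ciliated cells of miR-34b and miR-34c, was at the edge of detection in every sample. Its log2 level was 3.75, 3.86, 3.87 and 3.67 in tumors 1 to 4 and 5.21 in neocortex 3, and it was listed at 0 in neocortex 1 and 2. These values stand for 14, 20, 17 and 24 counts in tumor and 8 counts in neocortex 3, at or under the highest negative control in tumors 1 and 3 and in all neocortex samples. Its listed change of 2.05 had an adjusted p = 0.30 (limma, Benjamini-Hochberg), and with the shared cutoff it had no value above it. Without neocortex 3 the remaining neocortex values were all at 0, and the fitted change of 3.79 (adjusted p = 1.3e-04 in limma, Benjamini-Hochberg) reflects that listing. The related probes miR-449b and miR-449c were listed at 0 in all 7 samples.

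**Figure D3:**
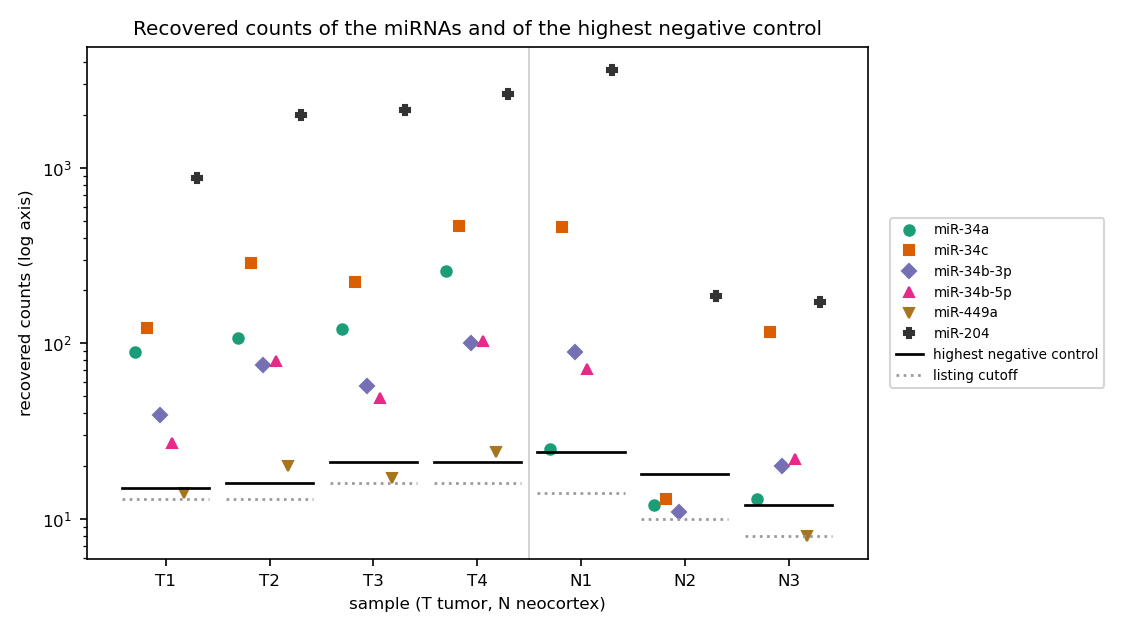
Recovered counts (y axis, log scale) of the 6 miRNAs in tumors 1 to 4 (T) and neocortex 1 to 3 (N), with the highest negative control of each sample (black line) and the listing cutoff (dotted line). In neocortex 2 miR-34a, miR-34c and miR-34b-3p had 11 to 13 counts, under the 18 of the negative control, and miR-449a lay near the line in every sample where it was listed.

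miR-204 was bright in all samples and highest in 1 neocortex sample. Its log2 level was 9.72, 10.51, 10.84 and 10.44 in tumors 1 to 4, against 12.65, 9.10 and 9.64 in neocortex 1 to 3. Neocortex 1 was above all tumors and neocortex 2 and 3 below all of them. miR-204 made up 0.747%, 1.31%, 1.66% and 1.26% of the miRNA counts of tumors 1 to 4. In neocortex it made up 5.91% (95% Wilson interval 5.73 to 6.10), 0.503% (0.436 to 0.580) and 0.729% (0.629 to 0.846), which cover counting error only. In neocortex 1 it was the 3rd brightest of all 566 miRNA probes, against ranks 37 and 26 in neocortex 2 and 3 and 13 to 26 in the tumors.

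The means of miR-204, 10.38 ± 0.47 in tumor (SD, n = 4) and 10.46 ± 1.91 in neocortex (SD, n = 3), differed by -0.09 (95% interval -2.17 to 2.0, adjusted p = 0.94 in limma, Benjamini-Hochberg). Leaving out neocortex 1 put the change at 1.01 (adjusted p = 0.090), leaving out neocortex 2 put it at -0.77, and leaving out tumor 1 put it at 0.13 (adjusted p = 0.91; all limma, Benjamini-Hochberg). With 3 neocortex samples that differ 11.7-fold, a change of this size between the groups was not detectable.

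Among the 197 miRNAs listed in all 7 samples, the range from the lowest to the highest neocortex sample was widest for miR-34c, at 4.42 on the log2 scale, then for miR-204, at 3.55, and then for miR-34b-3p, at 2.30. The median range was 0.61. For miR-34c and miR-34b-3p the low end is neocortex 2, where they were under the negative control. miR-34a is left out of this ranking because its neocortex values were at about the negative control. In the tumors the ranges of miR-34c, miR-204 and miR-34b-3p were 1.08, 1.12 and 0.54, against a median of 0.65, and ranked 34, 31 and 119. These ranges are a description with no test.

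Differences taken within a sample do not depend on how that sample was scaled. miR-34a minus miR-34c was -0.45, -1.43, -0.89 and -0.85 in tumors 1 to 4, against -4.20, -0.12 and -3.16 in neocortex 1 to 3. Neocortex 1 and 3 lay below all tumors and neocortex 2 above them. miR-34a was at about the negative control in all 3 neocortex samples and miR-34c under it in neocortex 2, so these neocortex differences do not measure miR-34a against the other miRNA. The mean differed by 1.59 between tumor and neocortex (2-sided exact permutation p = 0.26, where 0.029 is the lowest this design can reach). Without neocortex 2 the difference was 2.77 (exact permutation p = 0.067, the lowest reachable with 2 neocortex samples). These tests compare listed values and leave unanswered whether the 2 miRNAs changed unequally. With the same limit, for miR-34a against miR-204 the difference was 1.20 (exact permutation p = 0.23) and 0.09 without neocortex 1, and for miR-34c against miR-204 it was -0.39 (exact permutation p = 0.80) and 0.56 without neocortex 3. These 3 pairs were the ones compared, and the Benjamini-Hochberg adjusted values were 0.39, 0.39 and 0.80.

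**Figure D4:**
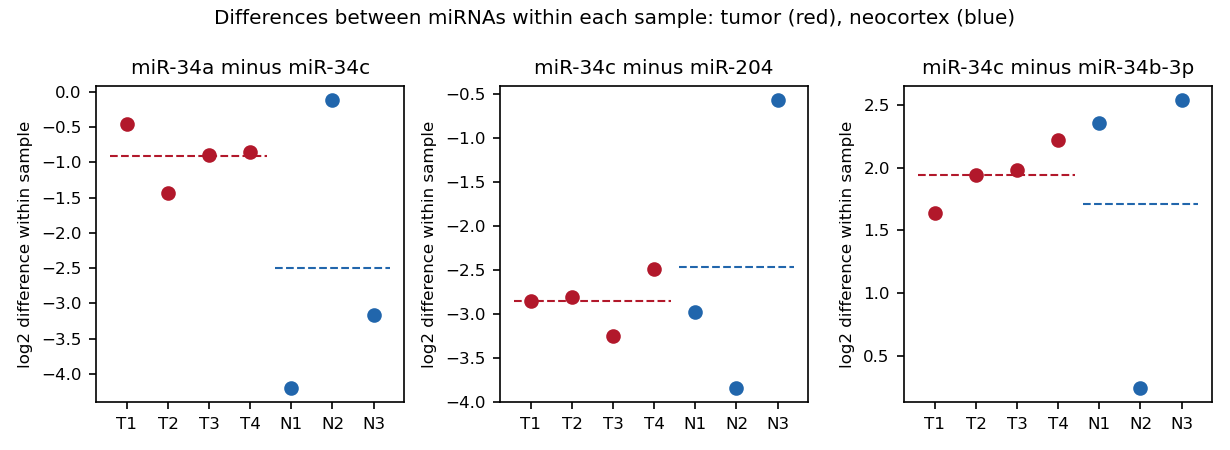
Log2 difference between a pair of miRNAs within each sample (y axis) in tumors 1 to 4 (T, red) and neocortex 1 to 3 (N, blue), with dashed group means. The miR-34c minus miR-204 difference lies between -3.25 and -2.49 in the tumors and at -2.97, -3.84 and -0.57 in neocortex 1, 2 and 3.

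miR-34c and miR-34b-3p come from the same transcript. miR-34c minus miR-34b-3p was 1.64, 1.94, 1.98 and 2.22 in tumors 1 to 4 and 2.36 and 2.54 in neocortex 1 and 3. In neocortex 2, where both were under the negative control, it was 0.24. The arms of miR-34b differed from each other by -0.53 to 0.08 in the tumors and by -0.33 and 0.14 in neocortex 1 and 3. miR-204 did not keep step with them across the neocortex: miR-34c minus miR-204 was -2.97 in neocortex 1, within the tumor range of -3.25 to -2.49, but -0.57 in neocortex 3. Neocortex 1 thus had high miR-34b, miR-34c and miR-204, and neocortex 3 had high miR-34b and miR-34c with miR-204 below the tumors.

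Other miRNAs of choroid plexus and ciliated epithelium were read sample by sample. The list held 17 names, of which 14 were on the panel and 12 were above the cutoff in at least 1 sample; it includes 5 of the 6 members. miR-448, which lies in the serotonin receptor gene Htr2c, a gene strongly expressed in choroid plexus, was at 5.79 in neocortex 1, or 31 counts, and listed at 0 in neocortex 2 and 3. In tumor it was at 4.13 and 3.09 in tumors 2 and 4, or 24 and 16 counts, and at 0 in tumors 1 and 3. The sample with the highest miR-204 was thus also the only neocortex sample with miR-448, whose 31 counts compare with 24 for the negative control there. That control had 16 counts in tumor 2 and 21 in tumor 4, so miR-448 was near background wherever it was listed.

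The epithelial miR-200 family and miR-211 gave no clear signal. miR-200a, miR-200b, miR-200c, miR-141 and miR-429 had at most 23 counts in any sample, and miR-200c and miR-429 were at 0 in all neocortex samples. miR-141 was listed in all 3 neocortex samples with 14, 11 and 10 counts, each under the highest negative control, and only in tumor 2 among the tumors. miR-211 had 16 counts in tumor 1 and was at 0 in the other 6 samples. Of the 6 tested list members 0 were called in limma and 0 had an unadjusted p under 0.05, against 17.7% and 32.5% of all tested miRNAs. Their median change was 0.39, against 0.03 over all tested miRNAs, and -0.47 against -0.15 with the shared cutoff, so its sign rested on the values at 0.

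Summed over the 14 probes, the list had a linear level of 1081, 1867, 2161 and 1787 in tumors 1 to 4 and 7615, 699 and 1650 in neocortex 1 to 3. miR-204 made up most of this in every sample except neocortex 3; without it the sums were 238, 409, 328 and 397 in tumor and 1188, 150 and 852 in neocortex. The number of the 14 probes listed at 0 was 6, 4, 7 and 6 in tumors 1 to 4 and 8, 9 and 7 in neocortex 1 to 3. Neocortex 1 and 3 were above every tumor by the sum without miR-204, and neocortex 2 was below every tumor by its listed values. The neocortex 2 sum held 4 listed probes and 9 at 0, under a cutoff higher than in any tumor, so its place below the tumors is not settled. Whether tissue lining a ventricle was included in any of the dissections was not tested.

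Markers of other cells were set beside these sums. The neuron list, 10 miRNAs led by miR-124, summed to 9933, 8512, 7865 and 6984 in tumors 1 to 4 and to 9372, 16781 and 14048 in neocortex 1 to 3. Neocortex 1, the sample richest in miR-204 and miR-34c, was thus inside the tumor range for neuronal miRNAs, and neocortex 2, with the least miR-34b and miR-34c, had the highest sum. miR-124 itself was at 12.00, 11.74, 11.94 and 11.84 in the tumors and at 12.21, 13.07 and 12.92 in neocortex. Of the 10 neuron miRNAs, miR-212 was at 0 in all neocortex samples. Their part in the levels of the 6 members was not tested.

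The 3 oligodendrocyte miRNAs, led by miR-338-3p, summed to 1004 to 2323 in tumor and 5985 to 7702 in neocortex, and the 4 vessel miRNAs, led by miR-126-3p, to 1633 to 3246 in tumor and 1202 to 1538 in neocortex. The 7 microglia and leukocyte miRNAs, led by miR-342-3p, summed to 688 to 1239 in tumor and 717 to 923 in neocortex. Members of that list differed among themselves. miR-146a was at 5.26, 5.88, 5.82 and 5.91 in tumors 1 to 4 and at 0 in all neocortex samples (adjusted p = 2.2e-05 in limma, Benjamini-Hochberg). miR-142-3p, a marker of blood-derived cells, was at 7.33, 6.28, 6.30 and 6.18 in tumors 1 to 4 and at 4.93, 0 and 0 in neocortex 1 to 3 (adjusted p = 0.044 in limma, Benjamini-Hochberg). For both miRNAs the size of the fitted change and its adjusted p rest on neocortex values listed at 0. With the shared cutoff the tumor means of miR-146a and miR-142-3p were 5.72 and 6.52. The neocortex mean of each was then 5.21, the cutoff itself. By the listed values both were higher in every tumor than in any neocortex sample, as was miR-34a. In tumor 1 miR-146a, at 5.26, lay close to that cutoff, and miR-34a in neocortex was at about the negative control. The part of miR-146a and miR-142-3p in the level of miR-34a was not tested. The other listed members of that list, miR-150, miR-155, miR-223 and miR-342-3p, differed by -0.48, 0.16, 0.98 and -0.54. None of them was called, and their groups overlapped. miR-142-5p was at 0 in all samples. The 3 red blood cell miRNAs, led by miR-451, summed to 396 to 675 in tumor and 268 to 366 in neocortex. The 5 miRNAs of meninges and mesenchyme, led by miR-145, summed to 415 to 955 in tumor and 541 to 703 in neocortex, with miR-199a-5p and miR-214 at 0 in all neocortex samples. Within neocortex each of these 5 sums varied less than the sum of miR-34b and miR-34c probes, which was 1107, 70.8 and 732 in neocortex 1 to 3, against 180, 322, 283 and 355 in tumors 1 to 4.

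**Figure D5:**
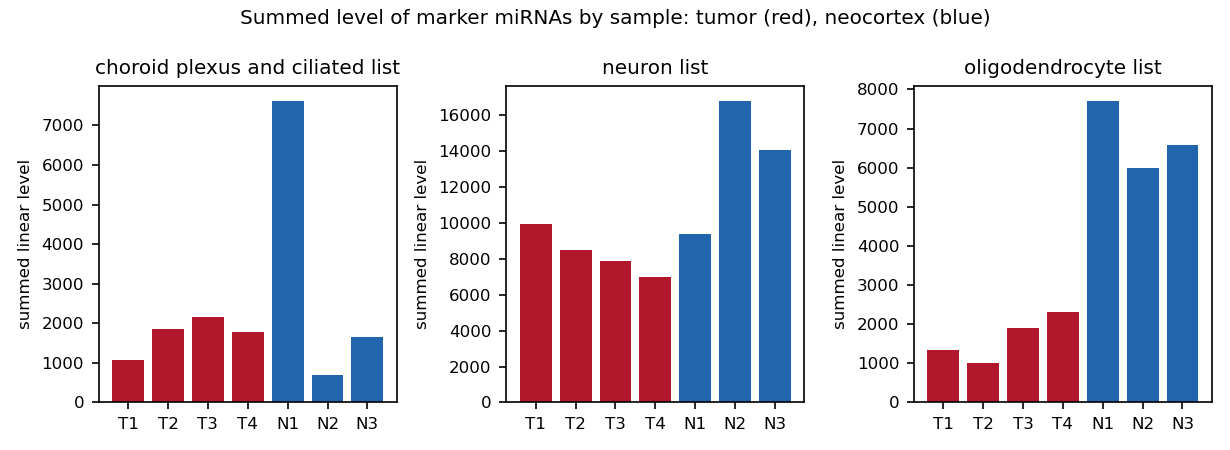
Summed linear level (y axis, from 0) of the miRNAs of the choroid plexus and ciliated epithelium list, the neuron list and the oligodendrocyte list in tumors 1 to 4 (T, red) and neocortex 1 to 3 (N, blue). Neocortex 1 has the highest choroid plexus and ciliated sum, 7615, and the lowest neuron sum of its group, 9372, while the oligodendrocyte sum is 5985 to 7702 in all 3 neocortex samples.

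Among other miRNAs of the p53 pathway none passed the test beside miR-34a on the authors' scaling. The list held 10 names, 9 of them on the panel and tested. Of these 1 was higher, miR-34a, and 0 were lower in limma, and the same counts held at an unadjusted p under 0.05. Over all tested miRNAs 8.13% were called higher and 9.54% lower, and 32.5% had an unadjusted p under 0.05 in either direction. The median change was 0.40, against 0.03 over all tested miRNAs, and -0.21 against -0.15 with the shared cutoff. miR-192 and miR-194, which p53 also induces, were at 4.04 to 4.53 and 4.78 to 5.15 in the tumors. miR-192 was at 0 in neocortex 1 and 3 and at 4.88 in neocortex 2, and miR-194 at 0 in neocortex 2 and at 5.23 and 5.21 in neocortex 1 and 3. These listed neocortex values lay under the highest negative control, which was at 5.42, 5.73 and 5.80 in neocortex 1 to 3. They cannot be told from background. miR-107, in an intron of the p53 target Pank1, differed by -0.20, and miR-143 and miR-145, whose maturation p53 promotes, by 0.40 and -0.22, none of them called.

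Profiles most like those of the members were found by the mean absolute difference of centered log2 values over the 7 samples, among the 197 miRNAs listed in all of them. For miR-34a the closest were miR-93 at 0.19, miR-1944 at 0.24 and miR-106b at 0.26. For miR-34c they were miR-34b-3p at 0.52, miR-204 at 0.66 and miR-92b at 0.72. For miR-204 they were miR-34b-3p at 0.54, let-7f at 0.61 and miR-92b at 0.63. miR-34b-3p itself was closest to miR-30c at 0.29, miR-1935 at 0.37 and miR-27b at 0.38. The 3 neocortex values of miR-34a were at about the negative control, and miR-34c and miR-34b-3p were under it in neocortex 2, so these distances hold background values. The samples share their scaling, and the distances are a description.

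All changes given are relative to the authors' scaling. Scaled on the positive-control probes, the median of all tested miRNAs moved to 1.74, 80.6% of them were called higher, and miR-34a, miR-34c, miR-34b-3p and miR-204 lay at 2.83, 1.24, 1.01 and 1.63. Scaled on housekeeping mRNA probes the median moved to -0.93, with 3.53% called higher and 47.7% lower, and they lay at 0.16, -1.43, -1.66 and -1.05. Relative to the median of all tested miRNAs they lay at 1.08, -0.50, -0.74 and -0.12 under both of these scalings. Both scalings shift all listed values of a sample by the same amount, so this agreement follows from how they were made and is no test. miR-34a was above 0 under every scaling tried, and was not called on the housekeeping probes (adjusted p = 0.78 in limma, Benjamini-Hochberg).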

How the data were processed

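Total RNA of flash-frozen tissue was isolated with a miRNA kit and measured with the nCounter mouse miRNA panel, version 1.3, per the labels. The authors deposited log2 values, 1 column per sample; the sources used here give no normalization, background correction or software for them. Taken back to the linear scale, the low values (up to 60 counts) were whole multiples of 1 number in every sample, 100% of 151 to 264 values within 0.02 counts plus rounding, which gave the recovered counts. Their Poisson intervals cover counting error only. miRNAs with a mean of at least 2.80, the median over 566 probes, were tested with limma 3.58.1 in R 4.3.3 (lmFit, eBayes, no covariate, Benjamini-Hochberg over 283 miRNAs). The fit was also run on simulated data without values at 0 and with narrower spreads than several members had in neocortex. That run therefore does not cover such members. Within-sample differences were tested by exact permutation. The shared cutoff raised all values under 5.21 to it. Sequences and gene spans came from RefSeq tables, with 5 of 6 members matched to a mature sequence. The members, lists and tests were chosen with earlier results of these data known. Named miRNAs were the members, listed members of the choroid plexus and ciliated and p53 lists, the brightest of each other list, and the 3 closest profiles of each member listed in all samples. Other marker miRNAs were named after their values were seen. Alternatives comprised cutoffs, scalings, filters, a pseudocount of 10, background subtraction, variance model, sex, pairing and each sample left out; the shared cutoff combined with leaving out a sample was added after seeing the data.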

Additional observations from a re-analysis of the deposited data

Results flagged for a closer look

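The difference between miR-34c and miR-34b-5p within tumors had 1 sample far from the rest. It was 1.86 in tumor 2 and 2.17, 2.20 and 2.18 in tumors 1, 3 and 4, so the gap of tumor 2 to its neighbor took 0.912 of the whole range, over Dixon's 95% critical value for 4 samples. About 1 in 20 such groups would pass that value with nothing unusual in them, and 13 groups of tumor values were examined. The 79 counts of miR-34b-5p in tumor 2 have a 95% Poisson interval of 62.5 to 98.5, or 5.51 to 6.16 on the log2 scale, wider than the gap. No cause was tested.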

How the results depend on the processing

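miR-34a kept its direction under all 27 alternatives run and lost its call under 11 of them. It lay at 0.16 on the housekeeping probes, 1.04 in male samples only and 0.96 with the replicate block, and at 0.93 to 1.32 with each sample left out in turn. With the shared cutoff it lost the call without neocortex 2 (0.93) and without tumor 3 (1.07). miR-34b-5p, 0.87 as listed, changed sign to -0.73 with the shared cutoff, -0.37 with the negative control subtracted as well, -0.0017 with a pseudocount of 10 and -1.54 in male samples; each sample left out gave -1.40 to 2.09. With the shared cutoff it was -0.39, -1.27 and -0.55 without neocortex 1, 2 and 3, and -0.62, -0.83, -0.68 and -0.81 without tumors 1 to 4. On the positive-control probes miR-34b-3p, miR-34c and miR-204 changed sign to 1.01, 1.24 and 1.63 without a call, and miR-449a was called at 3.22. miR-204 lay at 0.02 after median scaling. With each sample left out, miR-34b-3p ranged over -1.34 to -0.19, miR-34c over -1.84 to 0.36, miR-449a over 1.18 to 3.79 and miR-204 over -0.77 to 1.01; with the shared cutoff, miR-34b-3p and miR-34c were called without neocortex 2 at -1.34 and -1.84, miR-34c was 0.36 and 0.06 without neocortex 1 and 3, and miR-204 was 1.01 without neocortex 1 and 0.13 without tumor 1. The within-sample differences ranged over 0.73 to 2.77 for miR-34a minus miR-34c, 0.09 to 1.81 for miR-34a minus miR-204 and -1.08 to 0.56 for miR-34c minus miR-204, which changed sign without neocortex 3.

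The number of members called was 2 on the positive-control probes and 0 on the housekeeping probes, in male samples and with the replicate block. It was 0 to 2 with each sample left out, and with the shared cutoff 3 without neocortex 2 and 0 without tumor 3. All calls numbered 50 as listed, 228 on the positive-control probes, 145 on the housekeeping probes, 89 without the filter, 29 in male samples, 5 with the replicate block, 23 to 73 with each sample left out, and 29 with the shared cutoff without tumor 3. Calls in the choroid plexus and ciliated list were 2 on the positive-control probes, 1 without the filter, 1 in male samples, 0 to 3 with each sample left out and 3 with the shared cutoff without neocortex 2. Calls in the p53 list were 6 on the positive-control probes, 2 on the housekeeping probes, 0 with the replicate block, 0 to 3 with each sample left out, and with the shared cutoff 3 without neocortex 2 and 0 without tumor 3. The cause of these changes was not tested. Same-numbered samples deviated together with correlations of -0.18, 0.25 and 0.13 for numbers 1, 2 and 3, and neocortex 1 correlated best with tumor 4 (0.43), so the numbers are not taken to pair the samples. miR-449a had no value above the shared cutoff and was not fitted there. The neocortex cutoff stood at 8 to 14 counts, and miR-34a had 12 to 25 counts in neocortex.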
